A study of Caenorhabditis elegans with 6 samples.

Results

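The transcripts of 10 genes of the protein-folding machinery of the endoplasmic reticulum (ER) were followed in 6 libraries of RNA from whole young adult Caenorhabditis elegans. They were chosen by name from the first column of the deposited table, and all 10 were among its 16262 genes. They comprise the HSP70 and HSP90 chaperones hsp-3, hsp-4 and enpl-1, the lectin chaperones crt-1 and cnx-1, the disulfide isomerases pdi-1, pdi-2, pdi-3 and pdi-6, and the oxidase ero-1. The animals carried a LARP-1::GFP fusion (knock-in allele yq636, 3 libraries) or a LARP-1::APEX2 fusion (knock-in allele yq637, 3 libraries). LARP-1 belongs to the La-related RNA-binding proteins, and APEX2 is a peroxidase used to tag molecules near it with biotin. Both groups were grown at 20 °C on E. coli OP50, held for 2 h at 25 °C in 3.3 mM biotin-aniline and then exposed for 2 min to H2O2 (11 µl of a 100 mM stock), so neither group is without these agents. The titles speak of immunoprecipitation, while the protocols describe total RNA and ribosomal RNA depletion, and no unenriched input was analysed here. A difference may therefore be one of recovery near the tagged protein or one of RNA level between strains, and these cannot be told apart.

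Proteins that enter the ER fold with the help of BiP, an HSP70, and of GRP94, an HSP90. Sugar-bearing proteins are held by calreticulin and calnexin, and disulfide bonds are made by protein disulfide isomerases, which the ER oxidoreductin Ero1 re-oxidises with release of H2O2. Unfolded proteins activate the sensors IRE1, PERK and ATF6, and in the worm the IRE-1 and XBP-1 branch induces hsp-4, a BiP gene widely used as a reporter of this unfolded protein response. In the adult worm, secretory load is carried among others by the intestine, the oocytes and the cuticle-forming hypodermis.

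The libraries held 3824041 to 6414569 reads on listed genes, and each of the 10 transcripts had at least 210 reads in every library, the lowest being ero-1. Replicates were labelled only by number, so p-values cover only the spread among the samples given, and part or all of it may be technical. The first principal component of all tested genes, which held 50.9% of the variance, set GFP apart from APEX2. The second held 19.5% and placed APEX2 replicate 1 at -28.3 and APEX2 replicates 2 and 3 at 18.4 and 17.2. Values without APEX2 replicate 1 are therefore given where a result for the 10 genes rests on it.

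All 10 transcripts had a difference above 0, as had 52.2% of all tested genes, and 6 of them rose by limma with Benjamini-Hochberg adjustment over all 10534 tested genes: hsp-4, hsp-3, pdi-2, pdi-1, pdi-6 and enpl-1. The calls of pdi-6 and enpl-1 were each lost in 14 of 18 alternative settings. None of the 10 fell by limma, at an unadjusted p under 0.05, or with edgeR or DESeq2. Over all tested genes 11.6% were called higher and 10.1% lower, 21.7% in all, and among the 3787 genes with a mean of at least 200 normalized counts, a level that every one of the 10 exceeds, 20.8% were called higher and 12.1% lower. At an unadjusted p under 0.05 the count was 7 of 10, with pdi-3 added, against 33.9% of all tested genes in either direction. In 8 of the 10 the 3 APEX2 libraries all lay above the 3 GFP libraries, against 19.9% of all tested genes (17.5% had the reverse order), the exceptions being crt-1 and ero-1. The differences, given throughout as APEX2 minus GFP on the log2(value + 1) scale, ran from 0.16 to 1.00 with a median of 0.29, and the median over all tested genes was 0.02. The summed normalized count of the 10 was 18163, 18319 and 17441 in GFP replicates 1 to 3 and 24601, 23830 and 22247 in APEX2 replicates 1 to 3. As a share of the reads on listed genes, the 10 took 0.407% ± 0.00996 with GFP and 0.513% ± 0.0116 with APEX2 (SD, n = 3). The library shares did not overlap, and their 95% Wilson intervals ran from 0.393% to 0.425% over the GFP libraries and from 0.496% to 0.531% over the APEX2 libraries. These intervals cover counting error only. In bulk RNA of whole animals, more cells of a type and more RNA per cell cannot be told apart.

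**Figure D1:**
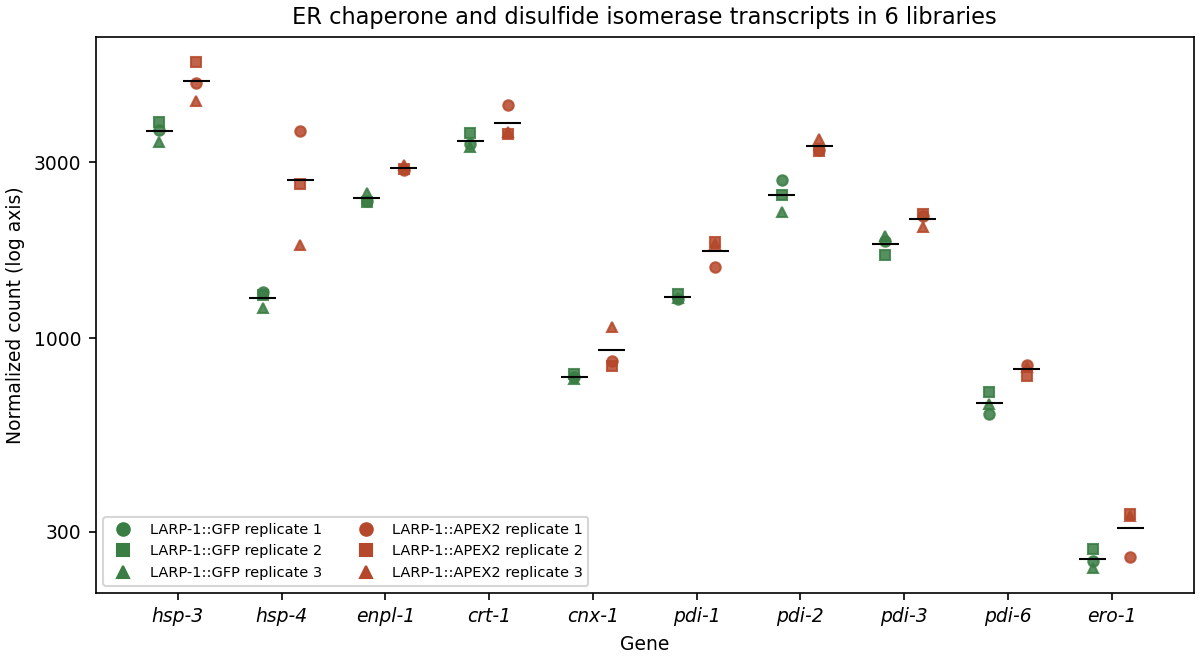
Normalized counts (log axis) of the 10 genes in each of 6 libraries; green symbols are LARP-1::GFP, red symbols LARP-1::APEX2, symbol shapes mark replicates and black bars the group means. The 3 APEX2 points lie above the 3 GFP points for 8 genes, not for crt-1 and ero-1, and hsp-4 is spread from 1784 to 3648 with APEX2.

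The BiP gene hsp-4 (WBGene00002008, chromosome II, 7350112 to 7352645, minus strand, WBcel235) had the largest difference of the 10. Its normalized counts were 1334, 1311 and 1207 in the GFP libraries and 3648, 2616 and 1784 in APEX2 replicates 1 to 3. The GFP libraries lay close together, whereas the APEX2 libraries were all higher but far apart, at 2.84, 2.04 and 1.39 times the GFP mean. The mean rose from 1284 ± 67.6 to 2683 ± 934 (SD, n = 3), a log2 difference of 1.00 ± 0.18 (SE; limma adjusted p = 0.0015) that lies at the 98.1st percentile of all tested genes. This SE pools both groups and is moderated towards genes of similar level, so it understates the spread among the APEX2 libraries. Without the variance trend and robust prior the call held narrowly (limma adjusted p = 0.045). It also held without each library in turn, with differences from 0.75 without APEX2 replicate 1 to 1.27 without APEX2 replicate 3. The SD of log2 values among the APEX2 libraries was 0.52, higher than in 99.4% of the 3787 genes with a mean of at least 200, where the median SD was 0.15. Among the GFP libraries it was 0.077, against a median of 0.10. Counting error is far smaller than this spread: hsp-4 took 0.0761% of the reads in APEX2 replicate 1 (95% Wilson interval 0.0735% to 0.0789%) and 0.0402% in APEX2 replicate 3 (0.0387% to 0.0418%).

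The second BiP gene, hsp-3 (WBGene00002007, chromosome X, 6089028 to 6092124, minus strand), is known in the worm as the more constantly expressed of the pair. It had 3666, 3843 and 3397 normalized counts with GFP and 4909, 5592 and 4398 with APEX2. Every APEX2 library exceeded every GFP library, and the highest was APEX2 replicate 2, not replicate 1 as for hsp-4. The log2 difference was 0.44 ± 0.11 (SE; limma adjusted p = 0.0083). It no longer passed when GFP replicate 3 was left out (0.40, adjusted p = 0.062), nor when APEX2 replicate 2 was (0.36, adjusted p = 0.058). The log2 ratio of hsp-4 to hsp-3, which does not depend on how a library is scaled, was -1.46, -1.55 and -1.49 with GFP and -0.43, -1.10 and -1.30 with APEX2. It was higher in all 3 APEX2 libraries, by 0.56 on average and by 0.30 without APEX2 replicate 1, but 3 libraries against 3 cannot give a two-sided exact permutation p below 0.1, the value found (0.17 adjusted over the 5 ratios compared here). Because the coding sequences of the pair are alike, reads that match both may have been split between them or left out. Which of these was done is not known. Their sum does not depend on a split, but does on reads left out. It was 5001, 5154 and 4604 with GFP and 8558, 8208 and 6182 with APEX2, so that the groups again did not overlap. Together hsp-4 and hsp-3 made up 7.14% and 20.2% of the summed level of the 10 with GFP and 25.0% and 23.8% of its increase with APEX2.

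The GRP94 gene enpl-1 (WBGene00011480, chromosome IV, 11119298 to 11123155, plus strand) encodes the HSP90 of the ER. Its normalized counts were 2356, 2343 and 2481 with GFP and 2849, 2873 and 2941 with APEX2. The APEX2 libraries were tightly grouped above all the GFP libraries, with an SD of log2 values of 0.024, but the step was small. The log2 difference was 0.27 ± 0.09 (SE; limma adjusted p = 0.045), and the call ended without any 1 library other than APEX2 replicate 1 (differences 0.26 to 0.30, highest adjusted p 0.14), with edgeR on the recovered reads (0.25, adjusted p = 0.063) and under quantile normalization (0.15, adjusted p = 0.29).

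**Figure D2:**
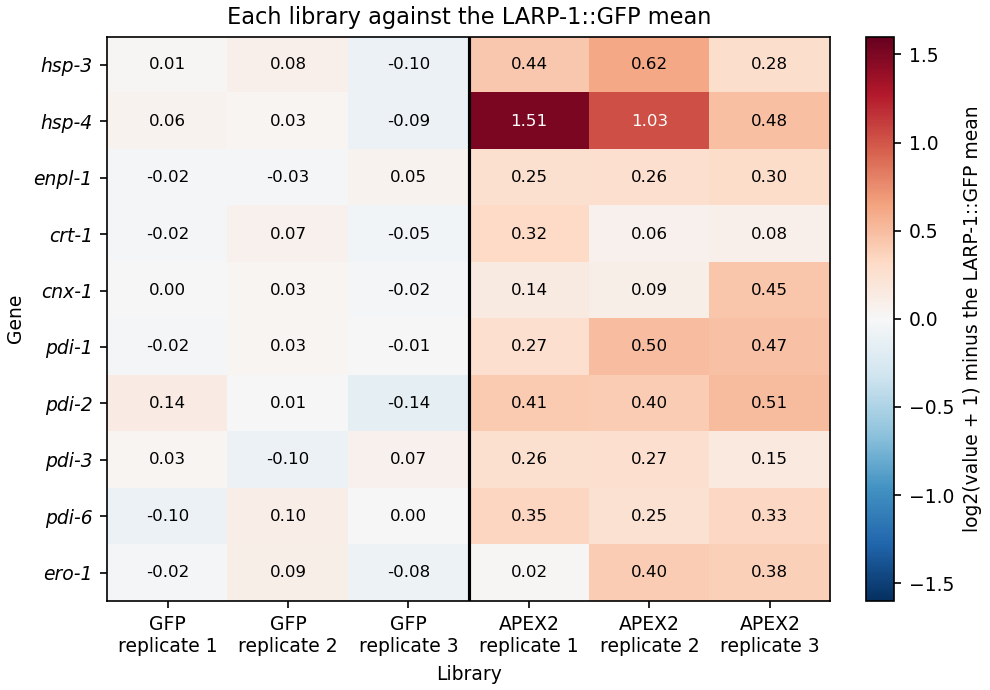
Each cell gives log2(value + 1) of a gene in a library minus its LARP-1::GFP mean; rows are genes, columns are libraries, and red is higher. The value for hsp-4 is 1.51, 1.03 and 0.48 in APEX2 replicates 1 to 3, while pdi-2, pdi-6 and enpl-1 stand at similar heights in all 3.

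Among the disulfide isomerases, pdi-2 and pdi-1 rose most. The gene pdi-2 (WBGene00003963, chromosome X, 4524155 to 4526536, plus strand) encodes the isomerase that in the worm also serves as the beta subunit of the prolyl 4-hydroxylases of cuticle collagen. It had 2675, 2443 and 2202 normalized counts with GFP and 3238, 3211 and 3463 with APEX2. The APEX2 libraries were level with each other and above all GFP libraries, among which replicate 1 was highest. The log2 difference was 0.44 ± 0.10 (SE; limma adjusted p = 0.0063), and without GFP replicate 3 it was 0.37 (adjusted p = 0.056). The gene pdi-1 (WBGene00003962, chromosome III, 3699739 to 3701461, minus strand), a classical disulfide isomerase, had 1279, 1318 and 1283 normalized counts with GFP and 1558, 1828 and 1795 with APEX2. Its GFP values were nearly equal, and the smallest step was that of APEX2 replicate 1. The log2 difference was 0.41 ± 0.10 (SE; limma adjusted p = 0.0085) and held without each library in turn, at 0.37 to 0.49. It held only narrowly without GFP replicate 3 or APEX2 replicate 2 (limma adjusted p = 0.049 and 0.048). Under quantile normalization the difference was 0.26 and did not pass (adjusted p = 0.083).

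The gene pdi-6 (WBGene00015168, chromosome X, 7066342 to 7068563, minus strand), related to the mammalian isomerase P5, had 623, 716 and 665 normalized counts with GFP and 850, 792 and 836 with APEX2. Its groups did not overlap, and its 0.31 ± 0.10 passed narrowly (SE; limma adjusted p = 0.042). As for enpl-1, the call ended without any 1 library other than APEX2 replicate 1 (differences 0.26 to 0.36, highest adjusted p 0.17) and with edgeR (0.29, adjusted p = 0.051). The gene pdi-3 (WBGene00003964, chromosome I, 7015908 to 7020797, minus strand), related to mammalian ERp57, the isomerase that works with calreticulin and calnexin, had 1831, 1680 and 1890 with GFP and 2147, 2173 and 2001 with APEX2. All APEX2 values lay above all GFP values, yet its 0.23 ± 0.10 did not pass (SE; limma adjusted p = 0.11), with a 95% interval before adjustment of 0.023 to 0.43. Under quantile normalization it was 0.044, the lowest value any setting gave for any of the 10.

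The oxidase gene ero-1 (WBGene00001334, chromosome I, 14664449 to 14674841, plus strand), whose product passes electrons from the isomerases to oxygen, was the least abundant. It had 249, 270 and 240 normalized counts with GFP and 256, 334 and 330 with APEX2. APEX2 replicate 1 lay among the GFP libraries, and APEX2 replicates 2 and 3 above them. The log2 difference of 0.27 ± 0.13 did not pass (SE; limma adjusted p = 0.18, 95% interval -0.021 to 0.56), but without APEX2 replicate 1 it was 0.39 and passed (adjusted p = 0.023). In that library hsp-4 was highest and ero-1 lowest of the 3.

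The lectin chaperones did not pass. Calreticulin, encoded by crt-1 (WBGene00000802, chromosome V, 6098992 to 6100542, minus strand), is also a calcium store of the ER. It had 3363, 3592 and 3302 normalized counts with GFP and 4276, 3570 and 3623 with APEX2. Only APEX2 replicate 1 stood clear of the GFP libraries. The log2 difference was 0.16 ± 0.10 (SE; limma adjusted p = 0.30, 95% interval -0.057 to 0.37) and 0.074 without APEX2 replicate 1. Calnexin, the membrane-bound relative encoded by cnx-1 (WBGene00000567, chromosome III, 9814364 to 9817137, minus strand), had 785, 802 and 774 normalized counts with GFP and 870, 841 and 1075 with APEX2. Here APEX2 replicate 3 was the high one, and the others were just above GFP. The log2 difference was 0.23 ± 0.11 (SE; limma adjusted p = 0.16, 95% interval -0.0069 to 0.47) and 0.12 without APEX2 replicate 3. The log2 ratio of crt-1 to cnx-1 was 2.12 ± 0.039 with GFP and 2.04 ± 0.27 with APEX2 (SD, n = 3; exact permutation p = 0.70), with a difference of -0.072 that turned to 0.074 without APEX2 replicate 3 and was -0.20 without APEX2 replicate 1.

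**Figure D3:**
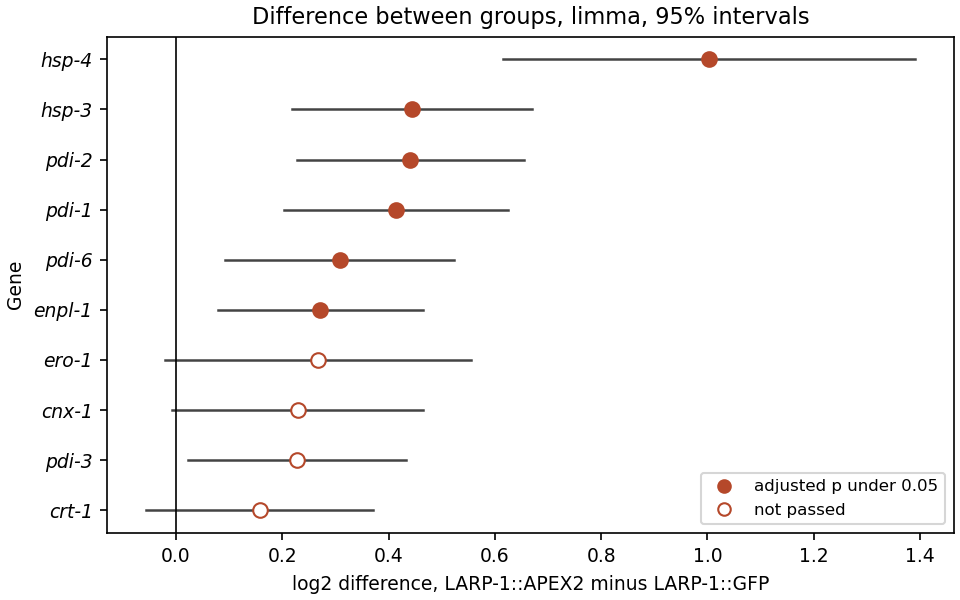
Log2 difference of each gene between LARP-1::APEX2 and LARP-1::GFP (3 libraries each) with its 95% interval from limma before adjustment; filled points passed an adjusted p of 0.05. All 10 points lie above 0, from 0.16 for crt-1 to 1.00 for hsp-4.

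No single APEX2 library led the 10 genes as a set, although hsp-4 and crt-1 stood highest in replicate 1 and cnx-1 in replicate 3. Of the 10 genes, 3 were highest in APEX2 replicate 1, 4 in replicate 2 and 3 in replicate 3, and the libraries held the lowest APEX2 value of 3, 4 and 3 genes. The median over the 10 genes lay 0.30, 0.34 and 0.35 above the GFP mean in APEX2 replicates 1 to 3, and between -0.036 and 0.029 in the GFP libraries. The count of genes called higher was 7 without APEX2 replicate 1, 3 without replicate 2 and 4 without replicate 3, and it was 4, 4 and 2 without GFP replicates 1, 2 and 3. The genes that remained called without GFP replicate 3 were hsp-4 and pdi-1 (limma adjusted p = 0.017 and 0.049). Exon sequence of hsp-3, hsp-4, pdi-1, pdi-3, pdi-6 and ero-1 overlapped that of no other gene. That of enpl-1, crt-1 and cnx-1 overlapped a gene on the opposite strand by 23, 92 and 49 nucleotides, and that of pdi-2 an ncRNA on the same strand by 18.

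Levels were compared between genes per length, as normalized counts per kb of exonic sequence. In the GFP libraries calreticulin was most abundant (crt-1, 2440 ± 109 per kb, SD, n = 3), followed by hsp-3 (1364 ± 84.3) and pdi-2 (1285 ± 124), whose ranges overlapped. Next came pdi-3 (1055 ± 63.5), enpl-1 (902 ± 28.6), pdi-1 (820 ± 13.7) and hsp-4 (575 ± 30.3). The lowest were pdi-6 (407 ± 28.1), cnx-1 (368 ± 6.50) and ero-1 (142.4 ± 8.66). Other than hsp-3 and pdi-2, no neighbours in that order overlapped. In the APEX2 libraries the first 4 places were unchanged, and hsp-4 stood in the fifth place at 1202 ± 418 per kb. Its range of 799 to 1635 per kb took in all values of pdi-3 (1173 to 1274), pdi-1 (988 to 1159) and enpl-1 (1074 to 1109), so its place among them is not fixed by these libraries.

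**Figure D4:**
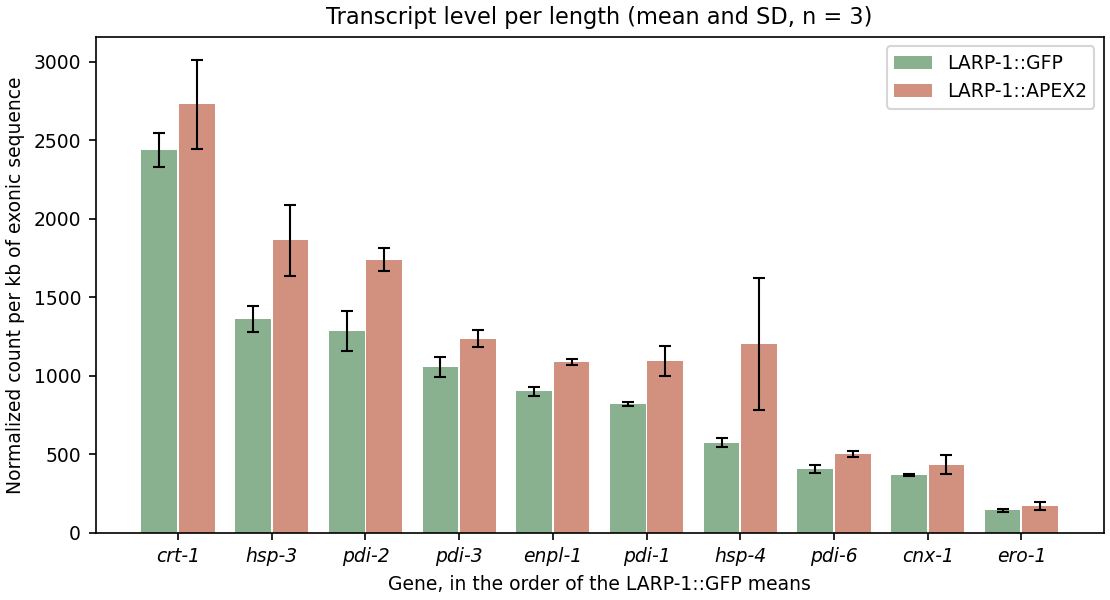
Mean normalized count per kb of exonic sequence for each gene, with SD (n = 3), in LARP-1::GFP (green) and LARP-1::APEX2 (red) libraries, ordered by the GFP mean. Calreticulin leads in both groups (2440 and 2729 per kb), and hsp-4 goes from the seventh place to the fifth with the widest error bar.

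The sensors and factors of the unfolded protein response moved unequally. The transcription factor gene xbp-1 had 1290, 1290 and 1348 normalized counts with GFP and 1948, 1724 and 1641 with APEX2. Each APEX2 library lay above every GFP library. The rise was 0.43 ± 0.10 (SE; limma adjusted p = 0.0067), but under quantile normalization it was 0.27 and did not pass (adjusted p = 0.052). Gene-level counts do not show whether its RNA was spliced into the active form. The gene atf-4, whose product acts downstream of the PERK branch, rose by 0.54 ± 0.15 (SE; limma adjusted p = 0.021), which did not pass once GFP replicate 1 or 3 was left out (highest adjusted p 0.11). The genes of the 3 sensors themselves did not pass: ire-1 had a log2 difference of 0.14, pek-1 of -0.011 and atf-6 of 0.013.

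Partners of BiP also moved unequally. In a list of 4 ER DnaJ genes with T14G8.3 and T24H7.2, 2 of 6 rose and 0 fell, against 11.6% and 10.1% of all tested genes. T14G8.3 had 84.4, 76.2 and 68.5 normalized counts with GFP and 156, 161 and 163 with APEX2, about even within each group. Its difference of 1.06 ± 0.16 (SE; limma adjusted p = 0.00041) was as large as that of hsp-4. The gene dnj-7, related to the mammalian BiP co-chaperone P58IPK, rose by 0.52 ± 0.13 (SE; limma adjusted p = 0.014), which did not pass once GFP replicate 1 or 2 was left out (highest adjusted p 0.069). The list median was 0.24. The most abundant gene of the list, dnj-20, named after its values were seen, was lower in all 3 APEX2 libraries. It had 2658, 2656 and 2502 normalized counts with GFP and 2169, 2198 and 2359 with APEX2. Its difference of -0.22 ± 0.09 did not pass (SE; limma adjusted p = 0.11). A separate list, grouped here as other ER thioredoxin-fold proteins and not as partners of BiP, held C14B9.2, ZK973.11 and Y49E10.4. Its median was -0.0031. In it 0 rose and Y49E10.4 fell, from 42.2, 45.9 and 60.5 to 20.0, 25.2 and 33.2 normalized counts. The log2 difference of Y49E10.4 was -0.91 ± 0.26 (SE; limma adjusted p = 0.022). Leaving out GFP replicate 2, GFP replicate 3 or APEX2 replicate 2 ended that call (highest adjusted p 0.13).

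Most tested genes of N-glycosylation rose, and so did some of the collagen hydroxylase genes. Over all tested genes 11.6% were called higher and 10.1% lower, and 20.8% and 12.1% of those with a mean of at least 200. Of 6 tested genes of the oligosaccharyltransferase and the glycoprotein folding sensor, 5 rose and 0 fell, with a list median of 0.46. Of these, ostd-1 rose by 0.60 ± 0.10 and stt-3, the catalytic subunit of the transferase, by 0.49 ± 0.10 (SE; limma adjusted p = 0.0011 and 0.0025). The rise of dad-1, 0.46 ± 0.15 (SE; limma adjusted p = 0.044), was lost when any 1 library other than GFP replicate 2 and APEX2 replicate 3 was left out (highest adjusted p 0.22), and with edgeR and DESeq2 (adjusted p 0.061 and 0.051). It was 0.28 without GFP replicate 1 and 0.65 without GFP replicate 2. Of 4 tested collagen hydroxylase genes 2 rose and 0 fell, with a median of 0.26. These were the alpha subunits that pair with PDI-2: dpy-18, with 222, 220 and 217 normalized counts with GFP and 388, 380 and 439 with APEX2, rose by 0.87 ± 0.12 (SE; limma adjusted p = 0.00022), and phy-2 by 0.49 ± 0.11 (SE; limma adjusted p = 0.0072). The other two did not pass: phy-3 had a difference of -0.82 and was lower in all 3 APEX2 libraries, and let-268 had a difference of 0.037. The groups of dpy-18 were far apart, and the log2 ratio of pdi-2 to dpy-18 was lower in all 3 APEX2 libraries, at 3.04 ± 0.052 against 3.46 ± 0.12 (SD, n = 3; two-sided exact permutation p = 0.1, again the lowest this design allows).

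In the remaining ER lists the called genes are read against the 11.6% of all tested genes called higher. Of 14 genes of ER-associated degradation, 1 rose and 0 fell, with a median of 0.077. That gene was cdc-48.1, 1 of a pair of closely related genes of the ATPase that pulls proteins from the ER. It rose by 0.76 ± 0.10 (SE; limma adjusted p = 0.00012). Reads that match both may have been split between it and cdc-48.2, or left out. The gene cdc-48.2 had a difference of -0.22 that did not pass. The sum of the pair was 3512, 3735 and 3687 normalized counts with GFP and 5384, 4967 and 4624 with APEX2, with no overlap. Of 4 tested ER prolyl isomerase genes fkb-3 rose, by 0.66 ± 0.21 (SE; limma adjusted p = 0.033), which was lost when APEX2 replicate 2 or any 1 GFP library was left out (highest adjusted p 0.14), and 0 fell. The genes cyn-5, cyn-6 and fkb-5 had differences of 0.035, -0.088 and 0.35 that did not pass. Of the receptors that return escaped ER proteins from the Golgi, erd-2.2 rose by 0.68 ± 0.13 (SE; limma adjusted p = 0.0024), and erd-2.1 had a difference of 0.21 that did not pass. Without APEX2 replicate 1 the rise of erd-2.2 was 0.50 and still passed (limma adjusted p = 0.00085). Of 3 genes of the ER calcium pump and channels, 0 rose and 0 fell, with differences of -0.038 for sca-1, 0.0012 for unc-68 and 0.23 for itr-1. Over these 9 lists together 47 genes were tested, of which 14 rose and 1 fell, and their median was 0.15.

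**Figure D5:**
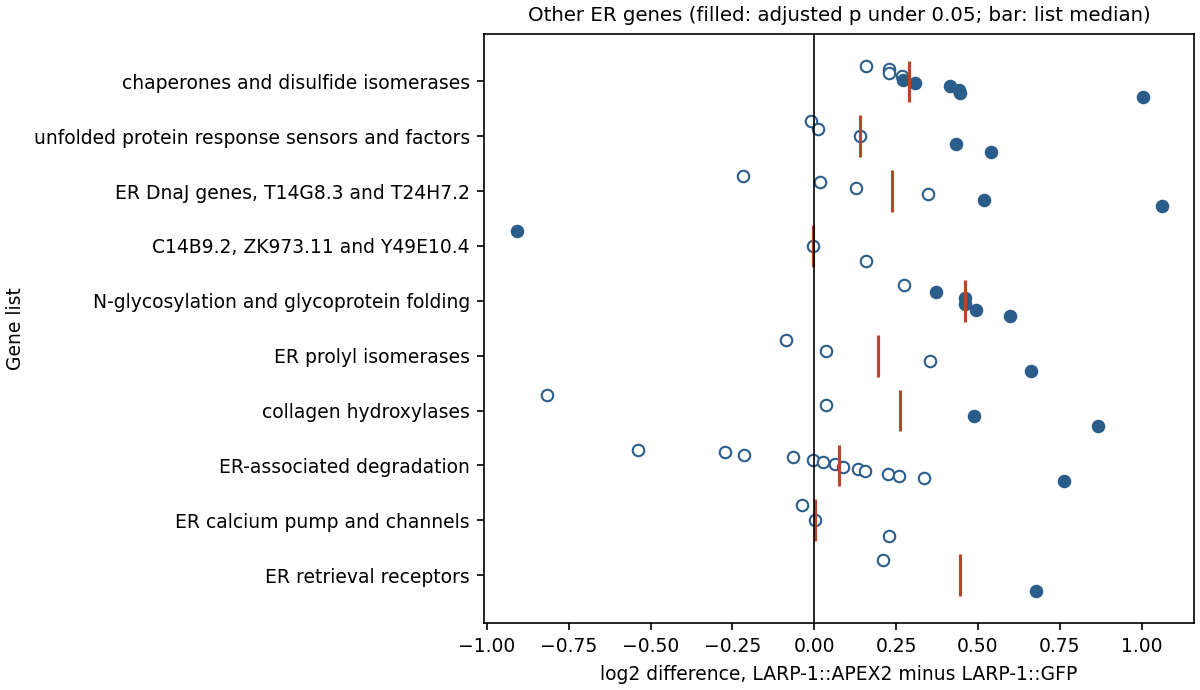
Log2 difference between LARP-1::APEX2 and LARP-1::GFP of every tested gene (points) in the 10 chaperone and isomerase genes and in 9 lists of other ER genes; filled points passed an adjusted p of 0.05 and red bars are list medians. The list medians lie between -0.0031 for C14B9.2, ZK973.11 and Y49E10.4 and 0.46 for N-glycosylation.

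Chaperones of the same families in other compartments did not share 1 direction. The cytosolic HSP70 gene hsp-1 had 7854, 7464 and 7175 normalized counts with GFP and 6421, 7083 and 6369 with APEX2. All its APEX2 libraries lay below the GFP libraries, but the difference of -0.18 ± 0.09 did not pass (SE; limma adjusted p = 0.19). The log2 ratio of hsp-3 to hsp-1 was -1.04 ± 0.077 with GFP and -0.42 ± 0.10 with APEX2 (SD, n = 3), higher in 3 of 3 APEX2 libraries (two-sided exact permutation p = 0.1). The mitochondrial HSP70 gene hsp-6 had a difference of -0.28 ± 0.10 (SE; limma adjusted p = 0.053), which passed with edgeR and DESeq2. The mitochondrial chaperonin gene hsp-60 and the cytosolic HSP90 gene hsp-90 rose by 0.44 ± 0.10 and 0.43 ± 0.09 (SE; limma adjusted p = 0.0085 and 0.0051). Leaving out GFP replicate 1, GFP replicate 3 or APEX2 replicate 2 left hsp-60 short of the threshold (highest adjusted p 0.055). The log2 ratio of enpl-1 to hsp-90 was -2.03 ± 0.11 with APEX2 and -1.87 ± 0.083 with GFP (SD, n = 3), a difference of -0.16 with overlapping libraries (two-sided exact permutation p = 0.30, in a design that cannot go below 0.1).

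Tissue markers were examined beside these genes. Their counts are read against the 11.6% of all tested genes called higher and the 10.1% called lower. Among genes with a mean of at least 200, a level that all 6 oocyte markers exceed, the shares were 20.8% and 12.1%. Of 6 oocyte markers 5 rose and rme-2, the yolk receptor, fell, and the summed level of the 6 was 18357 to 18927 normalized counts with GFP and 22665 to 24401 with APEX2. Of 5 intestinal markers act-5 and vha-6 rose and 0 fell, with a summed level of 3797 to 4658 against 5603 to 8179, highest in APEX2 replicate 1. That sum was carried by act-5 and vha-6: the list median was 0.13, and ges-1 and elt-2, named after their values were seen, had differences of -0.51 and -0.41 that did not pass, with ges-1 lower in all 3 APEX2 libraries. For 5 germline markers, of which glh-1 rose and pgl-1 fell, the sums were 10782 to 11544 and 11661 to 12250. Most of these sums was gld-1, with means of 8524 and 9701, which did not pass (limma adjusted p = 0.16). The germline list median was 0.10. The summed ranges overlapped for the markers of hypodermis, body wall muscle, pharynx, neurons, sperm, coelomocytes, and spermatheca with gonadal sheath, and spe-9 and spe-11 were at 0 in at least 1 library. Of their tested markers, bli-1 (of 4 for hypodermis and cuticle), unc-15 (of 5 for muscle) and ssp-9 (of 3 for sperm) rose, myo-3 of muscle fell, and 0 of the others passed. The part of tissue composition in the rises of the ER genes was not tested.

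Likeness was measured as the root mean square distance, over 6 libraries, between a gene's log2 values and the median profile of the 10, each centred on its GFP mean. Of 5466 other genes with a mean of at least 100, the closest were C14C10.5 (0.018), the eggshell gene cbd-1 (0.026), icd-2 (0.028), which encodes a subunit of the nascent polypeptide-associated complex, the ribosomal protein gene rpl-18 (0.037) and the COPI coat gene copd-1 (0.039). These rose by 0.28 to 0.36, but all 5 calls were lost when GFP replicate 3 or APEX2 replicate 2 was left out, and 4 of them when GFP replicate 1 or 2 was (highest adjusted p 0.17). A search by nearness to the median profile of the 10 favours rises of this size, so they are no separate result. The profile of hsp-4 was searched in the same way after its values had been seen. Its closest were abu-14 at 0.11, the cuticle collagen gene col-10 at 0.11, rcan-1, a regulator of calcineurin, at 0.13, F32A5.4 at 0.14 and F59B10.4 at 0.15. For col-10 the normalized counts were 659, 569 and 503 with GFP and 1455, 1097 and 768 with APEX2. It had the library order of hsp-4, with APEX2 replicate 1 highest and replicate 3 lowest. A search by nearness to hsp-4 favours such an order, so it is no separate result.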

How the data were processed

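Per the submitters' processing notes, Trim Galore, Bowtie, STAR, featureCounts and DESeq2 were used with build ce11. Their versions and settings, strand included, being not given in the sources used here, could not be examined. The authors deposited a signal per gene and library, named normalized counts: a read count divided by 1 size factor per library. Dividing each library by its lowest nonzero value gave whole reads for 100% of genes (tolerance 0.001 read), and these reads were recovered for the count tests. Coordinates, 1-based, and exonic lengths come from the Ensembl annotation of WBcel235, the assembly of ce11. Of the listed genes 98 had no match.

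Genes with a mean value of at least 10 were tested on log2(value + 1) in limma 3.58.1 (R 4.3.3), using a robust prior with a variance trend, and Benjamini-Hochberg adjustment over all tested genes (threshold 0.05). The steps were tested on simulated data. Alternatives were edgeR 4.0.16 and DESeq2 1.42.0 on those reads, other pseudocounts, filters, scalings, a length correction, a replicate block and the loss of each library. On the recovered reads edgeR called 1121 genes higher and 1095 lower, and DESeq2 1017 and 954. Ratios within a library were compared by two-sided exact permutation tests. No libraries of a group were alike within sampling noise (chi-square per degree of freedom 2.82 to 12.2). The genes and lists were chosen with earlier results of these data known. Text names the 10 genes, up to 3 called genes per list and direction, and the 5 closest profiles. Genes of lists of at most 5 could also be named, but not all of them are. No sequences were used here.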

Additional observations from a re-analysis of the deposited data

How the results depend on the processing

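Over the 10 genes and 18 alternative settings, 144 of 180 differences kept their direction and side of the threshold, 35 no longer passed, 1 newly passed and 0 changed sign. The 144 include genes that kept their side by staying uncalled: crt-1, cnx-1 and pdi-3 in all 18 settings and ero-1 in 17. All 35 losses fell on the 6 called genes. They were 14 each for enpl-1 and pdi-6, 3 for hsp-3, 2 each for pdi-2 and pdi-1, and 0 for hsp-4. The count of 6 higher and 0 lower was 3 higher under quantile normalization, 1 without the variance trend and robust prior (hsp-4, adjusted p = 0.045, while xbp-1, phy-2 and hsp-90 also no longer passed), and 2 to 7 without 1 library. It was 4, with hsp-4, hsp-3, pdi-2 and pdi-1 called, with edgeR, with DESeq2 and with the replicate block. The same 4 were called with no filter on low values, TMM scaling, scaling to the same total and the length correction. The count stayed at 6 only with the other pseudocounts and with a mean of at least 50. Same-numbered libraries had correlations of deviations of -0.16, -0.082 and 0.023, so the numbers are not shown to pair the samples. The block gave 984 genes higher and 883 lower. Over all tested genes, 1219 were higher and 1069 lower, with 651 higher without the variance trend and robust prior, and 612 to 1310 higher and 550 to 1191 lower without 1 library. The 14 other ER genes called higher became 8 without the variance trend and robust prior and 8 to 15 without 1 library. The 1 called lower became 0 with a mean of at least 50, 3 under quantile normalization, 2 with the length correction, and 0 to 2 without 1 library. The difference of atf-6 turned negative under TMM scaling (-0.0072), scaling to the same total (-0.043), edgeR (-0.019), DESeq2 (-0.016) and the length correction (-0.051), and was -0.10 to 0.088 without 1 library. That of pek-1 was -0.13 to 0.21 without 1 library, and the log2 ratio of crt-1 to cnx-1 -0.20 to 0.074. The cause of these changes was not tested.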
